A study of Mus musculus with 8 samples.

Results

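FGF receptors and ligands were measured in mouse embryonic stem (ES) cells on 8 Illumina expression arrays. The genes are the 4 receptors with a kinase, Fgfr1, Fgfr2, Fgfr3 and Fgfr4, the receptor without one, Fgfrl1, and the ligands Fgf5, Fgf8 and Fgf15, 8 genes in all. They were chosen by name, and every probe that the platform annotation gives to one of these symbols was taken. This gave 10 of the 45281 probes on the array, for 6 of the 8 genes. Fgf5 and Fgf15 had 0 named probes and were not analysed here. One further probe carried the symbols of both Flg and Fgfr1 and was given to neither gene.

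All cells were of the R1 ES cell line, a single line, and lacked both copies of Fgf4 (FGF4-/-). The labels name the strain 129X1/SvJ together with 129S1/SV-+p+Tyr-cKitlSl-J/+. Each sample carried 1 shRNA vector, was held overnight in N2B27, a medium without serum, to which BMP4 had been added at 10 ng/ml, and is labelled day 3. In the first group, FGF4 at 20 ng/ml was given to cells with an shRNA against Mp1 (shMp1Lib or shMP1G). Mp1, the product of Lamtor3, is a scaffold protein that brings the kinases MEK1 and ERK1 together. In the second group the same dose of FGF4 was given to cells with a control shRNA (shRnd1 or shRnd2). The 2 remaining groups carried the same control shRNAs and were labelled as given LIF at 10 u/ml or no growth factor. Each of the 4 groups has 2 arrays, which differ in their shRNA. Whether both arrays of a group stem from separate cultures is not stated, so p-values measure the spread between these arrays, which may be technical.

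FGF ligands bind receptor tyrosine kinases on the cell surface together with heparan sulfate, a sulfated sugar chain on cell surface proteins. The activated receptor binds adaptor proteins that switch on RAS and the kinases RAF, MEK and ERK, and ERK induces transcription factors and also inhibitors of its own pathway. Mouse ES cells make FGF4, which acts on the same cells through FGF receptors, and the resulting ERK activity moves them out of self-renewal. In cells without Fgf4, FGF added to the medium takes the place of this loop. Fgf5 and Fgf8 are ligands of the early embryo, and Fgf5 is a marker of the epiblast that follows the ES cell state.

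The labels could be checked in few places. Pou5f1, the stem cell transcription factor also called OCT4, was detected on all 8 arrays. Esrrb, the only other of 6 ES cell markers with a named probe, was detected on no array. Of 6 markers of feeder fibroblasts, 5 (Col1a1, Col1a2, Col3a1, Postn and Lum) were detected on no array, and Thy1 was detected on all. The Lamtor3 probe was not above background on any array, so the knockdown could not be checked, and Fgf4 had 0 named probes. Socs3, a feedback inhibitor that LIF induces through STAT3, went against the labels. Its normalized log2 intensity was 11.04 and 11.01 on the arrays labelled as without growth factor and 7.67 and 7.64 on those labelled LIF. Both groups are therefore called by their labels below, and any direction between them, or against only one of them, depends on those labels. The number of probes detected per array lay between 15375 and 17813. The arrays with Mp1 shRNAs differed most from each other, with a residual SD of 0.432 log2 units against 0.185 to 0.294 in the other groups.

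Of the receptors whose signal was high enough to be tested, Fgfrl1 and Fgfr2, RefSeq (assembly GRCm38.p6) gives the following promoters, from 250 bases before the annotated start to 50 after it. They are shown because an ETS factor, Etv4, rose with FGF4, and the letters CCGGAAGT, a core that ETS factors bind, were searched on both strands. Capitals mark a match.
Fgfrl1, chr5:108693979-108694278, plus strand: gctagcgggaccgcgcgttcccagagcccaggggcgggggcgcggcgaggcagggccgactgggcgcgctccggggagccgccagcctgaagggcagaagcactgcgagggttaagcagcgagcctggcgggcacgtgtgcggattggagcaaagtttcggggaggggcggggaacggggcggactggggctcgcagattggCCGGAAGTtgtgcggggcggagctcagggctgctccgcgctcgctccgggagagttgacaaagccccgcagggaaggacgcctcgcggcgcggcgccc
Fgfr2, chr7:130266759-130267058, minus strand: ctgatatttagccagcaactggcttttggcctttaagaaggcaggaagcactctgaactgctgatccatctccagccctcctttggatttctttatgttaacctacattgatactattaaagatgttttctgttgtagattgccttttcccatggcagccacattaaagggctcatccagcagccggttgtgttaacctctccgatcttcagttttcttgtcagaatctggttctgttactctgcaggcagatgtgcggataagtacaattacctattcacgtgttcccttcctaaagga
The match in Fgfrl1 begins at position -48 relative to the start. These letters occur in 3.89% of the 32851 promoters in the table. The table held promoters of 5 of the 8 genes, and the motif was matched in 1 of them. A match describes the sequence and is not a measured binding site.

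Most receptor and ligand probes did not rise above background. An array's detection p-value for a probe is the chance that a negative control bead is as bright, and a probe is called detected on an array where it is below 0.05. The 10 probes gave 80 measurements, of which 6 (7.5%) were detected, against 35.6% over all probes of the array. Of these 6, 3 came from FGF4 with Mp1 shRNAs, 2 from FGF4 with control shRNAs, 0 from the arrays labelled LIF and 1 from those labelled as without growth factor, with 20 measurements in each group. The lowest intensity that counted as detected was 90.2 to 116 arbitrary units, depending on the array. A level below that range is not measured here, and it does not show that a receptor is absent. In such bulk samples, fewer cells of a type and less RNA per cell cannot be told apart.

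**Figure D1:**
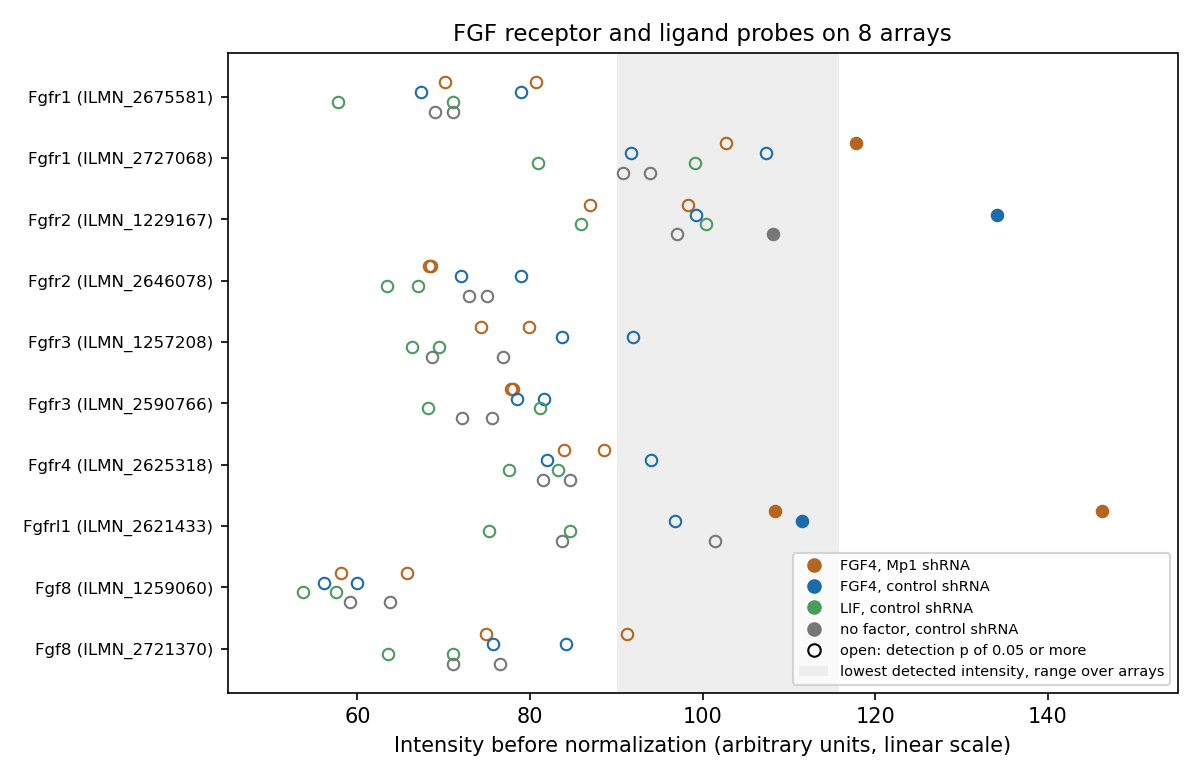
Intensity before normalization (x axis, arbitrary units, linear scale) of each FGF receptor and ligand probe (y axis) on each of the 8 arrays, coloured by group. Filled points are detected (detection p below 0.05), open points are not, and the grey band spans the lowest detected intensities of the 8 arrays, 90.2 to 116; the 6 filled points belong to Fgfr1, Fgfr2 and Fgfrl1.

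Fgfrl1, which binds FGF and heparan sulfate but has no kinase domain, was the gene detected most often, on 3 of 8 arrays. Its intensity was 146 with shMp1Lib and 108 with shMP1G. It was 96.8 and 112 with FGF4 and the control shRNAs shRnd1 and shRnd2. It was 75.3 and 84.6 on the arrays labelled LIF, and 83.7 and 101 on those labelled as without growth factor. The detected arrays were both with Mp1 shRNAs and the shRnd2 array with FGF4. After normalization the log2 means were 5.77 ± 0.30 (SD, n = 2) with Mp1 shRNAs, 5.38 ± 0.50 with FGF4 and control shRNAs, 5.13 ± 0.26 without growth factor and 4.98 ± 0.06 with LIF. The 2 arrays with Mp1 shRNAs were above all 4 arrays without FGF4, while those with FGF4 and control shRNAs overlapped both the Mp1 shRNA arrays and the arrays labelled as without growth factor. No neighbours in this order differed in limma's moderated test.

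Fgfr2, a receptor for ligands of the FGF family that includes FGF4, was detected with 1 of its 2 probes. Probe ILMN_1229167 had intensities of 86.9 and 98.3 with shMp1Lib and shMP1G. It had 134 and 99.2 with FGF4 and shRnd1 and shRnd2. It had 86.0 and 100 on the arrays labelled LIF and 108 and 97.0 on those labelled as without growth factor. The shRnd1 array with FGF4 stood above the other 7, and it and the shRnd1 array labelled as without growth factor were the 2 detected. The normalized log2 means were 5.68 ± 0.42 (SD, n = 2) with FGF4 and control shRNAs, 5.47 ± 0.11 with LIF, 5.44 ± 0.38 without growth factor and 5.07 ± 0.30 with Mp1 shRNAs, and no neighbours in this order differed in limma's test. The other probe, ILMN_2646078, lay between 63.4 and 79.0 on all arrays and was detected on none.

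Fgfr1, the main FGF receptor of ES cells in the mouse, was just at the edge of detection with 1 of 2 named probes. Probe ILMN_2727068 had 118 and 103 with shMp1Lib and shMP1G and 107 and 91.7 with FGF4 and the control shRNAs. It had 80.9 and 99.1 on the arrays labelled LIF and 90.7 and 93.8 on those labelled as without growth factor. Only the shMp1Lib array counted as detected, so the probe missed the requirement of 2 arrays. The intensities of the 2 FGF4 groups overlapped before normalization. The normalized log2 values did not, at 5.53 and 5.41 with Mp1 shRNAs against 5.30 and 5.16 with control shRNAs, a difference of 0.24 (interval -0.07 to 0.55). The other probe, ILMN_2675581, lay between 57.7 and 80.7 and was detected nowhere. The probe shared between Flg and Fgfr1 lay between 63.4 and 83.4 and was not detected either.

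Fgfr3 and Fgfr4, the other receptors with a kinase, were detected on no array. The Fgfr3 probes ranged from 66.3 to 91.9 (ILMN_1257208) and from 68.2 to 81.6 (ILMN_2590766). The highest value of the first, 91.9, was on the shRnd2 array with FGF4, with a detection p of 0.09, and the array with shRnd1 and FGF4 was next at 83.7. The single Fgfr4 probe was nearly flat, from 77.5 to 94.0. Among the ligands, Fgf8 had probes at 53.6 to 65.7 (ILMN_1259060) and 63.5 to 91.2 (ILMN_2721370), both below detection on all 8 arrays. The first of them was dimmer than nearly all others on the array, at percentile 1.32 of all probes by mean intensity. The brightest of the 10 probes by that measure was at percentile 63.1.

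Supplying FGF4 was compared with no growth factor first, in cells with control shRNAs. No receptor passed the test. A probe entered it if detected on at least 2 of 8 arrays, which 2 of the 10 probes did, and a call is an adjusted p under 0.05 in limma, adjusted by Benjamini-Hochberg over all 18110 such probes. Of those, 14.8% were called, 7.87% higher and 6.97% lower with FGF4. Of the 2 receptor probes 0 were called and 0 had an unadjusted p under 0.05. Fgfrl1 differed by 0.26 log2 units (SE 0.27, 95% interval -0.37 to 0.88, limma adjusted p = 0.637) and had overlapping groups, with the shRnd2 array with FGF4 above both arrays labelled as without growth factor and the shRnd1 array between them. Fgfr2 differed by 0.24 (SE 0.28, interval -0.40 to 0.87, limma adjusted p = 0.679), with overlapping groups. The intervals reach from a small decrease to an increase of most of a log2 unit, so these probes do not show that the receptors were unaffected.

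All 10 probes were also tested with no filter on dim probes, and 0 were called in limma's test, against 5.68% of all probes. Their log2 differences lay between -0.04 and 0.32, with a median of 0.10 against -0.005 over all probes. Of the 10, 9 were higher with FGF4, against 48.4% of all probes. However, 7 of the 10 were detected on no array and 1 on a single array, and some probes share a gene. This count therefore does not show a rise of the receptors. The smallest unadjusted p was 0.0554, for Fgfr3 probe ILMN_1257208, at 0.32 log2 units (interval -0.01 to 0.66) from values of 4.75 and 5.17 with FGF4 against 4.60 and 4.67 without. The offset added in normalization compresses differences between signals this close to background.

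The knockdown of Mp1 was compared with control shRNAs under FGF4. Again 0 of the 2 receptor probes were called by limma, 0 had an unadjusted p under 0.05, and 0.0828% of all tested probes were called. Fgfr2 was 5.07 with Mp1 shRNAs and 5.68 with control shRNAs, a difference of -0.61 log2 units (SE 0.28, interval -1.25 to 0.03, unadjusted p = 0.0583, limma adjusted p = 0.392). Both Mp1 shRNA arrays, neither of them detected, lay below both control arrays, of which 1 was detected. The Mp1 shRNA side is known only as a bound, and the difference did not pass. Fgfrl1 went the other way, 0.39 (SE 0.27, interval -0.24 to 1.02, limma adjusted p = 0.513), with overlapping groups. With no filter, 0 of 10 probes were called, against 0.0221% of all probes, and 5 of 10 were higher with the Mp1 shRNAs. The number of calls over all probes in this comparison depended on single arrays: it was 15 with all 8. It was 3129 without shMP1G and 19 without shMp1Lib, fits that leave 1 Mp1 shRNA array, which is assumed to vary like the other groups. It was 0 without any 1 of the arrays with FGF4 and control shRNAs or without growth factor, and 2 without either array labelled LIF. In these fits, too, 0 of the 2 receptor probes were called in this comparison.

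The remaining comparisons share arrays with these, and no receptor or ligand probe was called by limma in any of them. That also holds for all 10 probes with no filter, where 0.00663% of all probes were called between LIF and no growth factor, 5.51% between FGF4 with control shRNAs and LIF, and 4.9% and 5.56% between Mp1 shRNAs and no growth factor or LIF. With no filter, Fgfr1 probe ILMN_2727068 was 0.35 higher with Mp1 shRNAs than without growth factor (interval 0.04 to 0.67, unadjusted p = 0.0336, limma adjusted p = 0.249). Fgfr4 differed by 0.15 between LIF and no growth factor (unadjusted p = 0.0491, limma adjusted p = 0.711). Of all probes, 16.1% and 7.01% had an unadjusted limma p under 0.05 in these 2 comparisons. Between the arrays labelled LIF and those labelled as without growth factor, 0.00552% of tested probes were called, and Fgfrl1 and Fgfr2 differed by -0.14 (interval -0.77 to 0.49) and 0.03 (interval -0.61 to 0.66). Between FGF4 with control shRNAs and LIF, 15.1% of probes were called, and the differences were 0.40 for Fgfrl1 (limma adjusted p = 0.401) and 0.21 for Fgfr2 (limma adjusted p = 0.69). The largest differences were those of Fgfrl1 between the Mp1 shRNA arrays and the groups without FGF4. Against the arrays labelled as without growth factor, where 13.4% of probes were called, it was 0.65 (SE 0.27, interval 0.02 to 1.28, unadjusted p = 0.0442, limma adjusted p = 0.167). Against LIF, where 18.4% of probes were called, it was 0.79 (SE 0.27, interval 0.16 to 1.42, unadjusted p = 0.0196, limma adjusted p = 0.0784). The groups without FGF4, where the probe was not detected, are known only as bounds. The probe passed the filter only through arrays with FGF4, so it was tested because of the groups where it was higher. When every probe was tested, its limma adjusted p was 0.329 against no growth factor and 0.187 against LIF. Without the shMP1G array, Fgfrl1 passed against LIF in the filtered fit. That fit leaves 1 Mp1 shRNA array, shMp1Lib, and more of all probes were called in it too. Fgfr2 was lower with Mp1 shRNAs by -0.37 and -0.40 in these 2 comparisons, with limma adjusted p of 0.42 and 0.316.

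The rest of the FGF pathway was described with 5 gene lists: other ligands and FGF binding proteins, coreceptors with heparan sulfate enzymes, adaptors next to the receptor, pathway inhibitors, and transcription factors downstream. Of their 80 genes, 38 had a probe past the filter, and each is given by its brightest such probe. With FGF4 and control shRNAs against no growth factor, 11 rose, 4 fell and 23 did not pass, so 39.5% were called. Over all named genes taken by their brightest probe, 15.7% were called, 9.6% higher and 6.09% lower. Some of these genes were known to move when the lists were drawn up, so this share is a description only. The median log2 difference of the 38 genes was 0.32, against -0.007 over all tested probes.

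**Figure D2:**
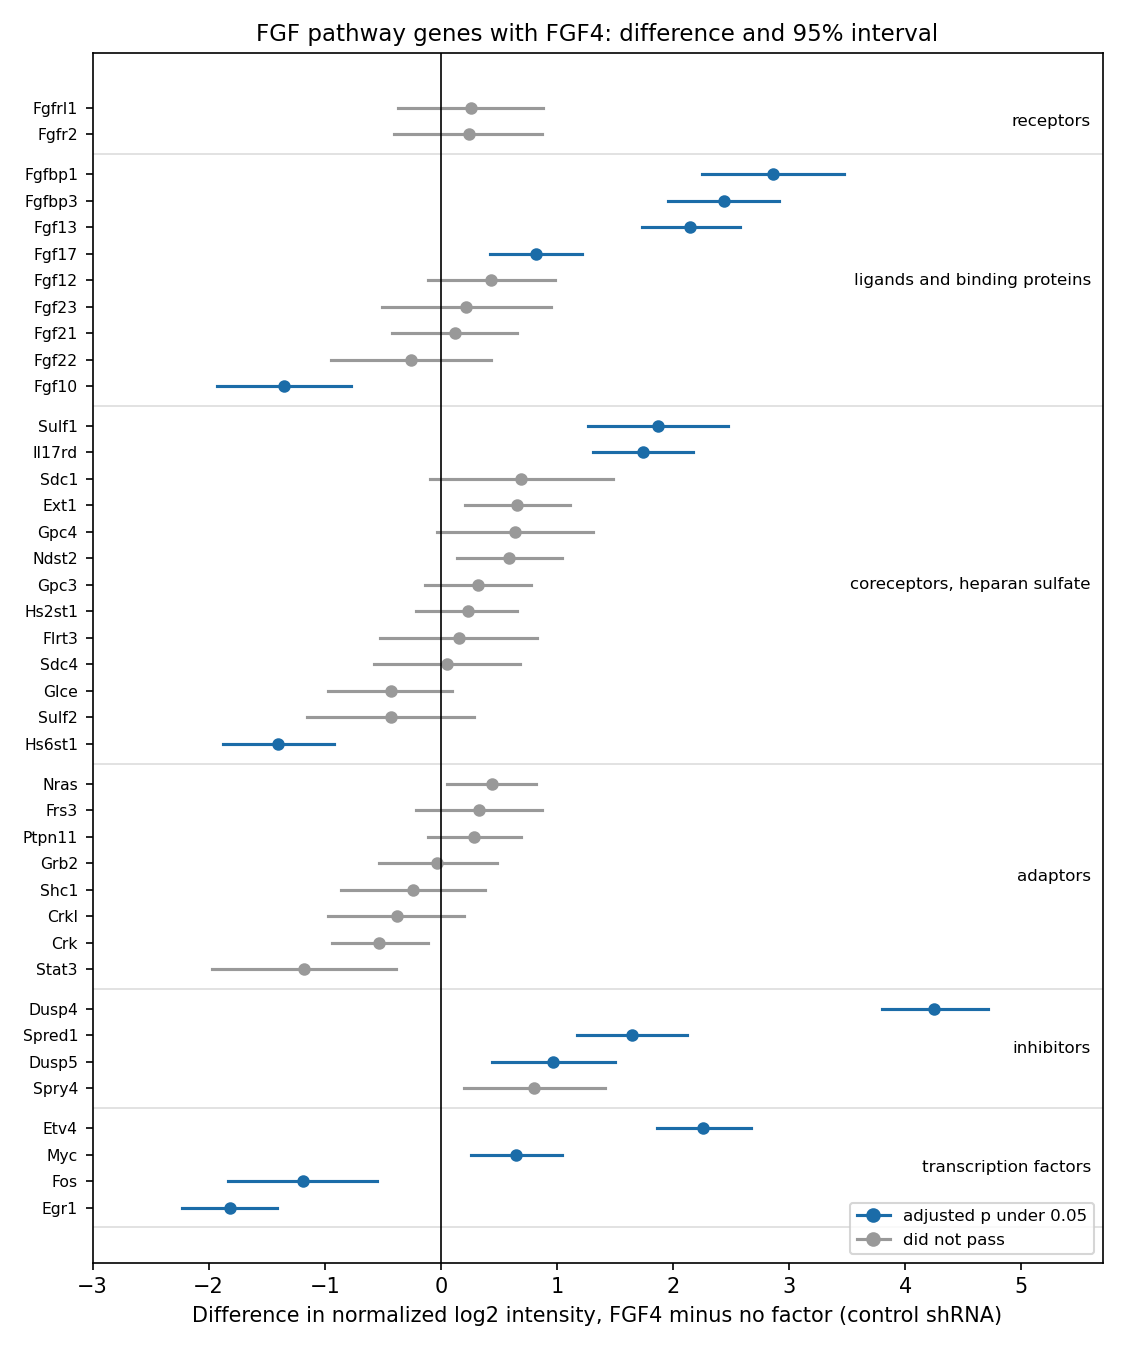
Difference in normalized log2 intensity between FGF4 and no growth factor in cells with control shRNAs (x axis; points, with 95% intervals of the limma fit as lines) for the 2 receptor probes tested and the 38 pathway genes (y axis), 2 arrays a group. Blue genes passed an adjusted p of 0.05 and grey ones did not; Fgfrl1 and Fgfr2 are grey with intervals across 0, and Dusp4 lies farthest to the right at 4.25.

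Among the ligands and binding proteins, 9 of 21 genes were measured, and 4 rose, 1 fell and 4 did not pass. Fgfbp1, a secreted protein that releases FGFs from heparan sulfate, had log2 values of 8.68 and 8.58 with FGF4 and control shRNAs and 5.42 and 6.11 without growth factor. The groups were far apart, by 2.86 (interval 2.25 to 3.47, limma adjusted p = 0.000277). Fgfbp3, a second binding protein of this kind, had 7.27 and 7.45 with FGF4 against 4.91 and 4.93 without, and was at least 3.67-fold higher (limma adjusted p = 0.000176), since it was not above background without growth factor.

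Fgf13, an FGF that stays inside the cell and does not signal through the receptors, had 7.53 and 7.58 with FGF4 against 5.30 and 5.51 without. It rose by 2.15 (interval 1.73 to 2.58, limma adjusted p = 0.00019) with probe ILMN_2745480, while its dimmer probe ILMN_1257196 differed by 0.20 (limma adjusted p = 0.713). Fgf17, a secreted ligand close to Fgf8 in sequence, had 9.66 and 9.78 with FGF4 against 8.92 and 8.87 without, a rise of 0.82 (interval 0.42 to 1.22, limma adjusted p = 0.0146). Its second probe differed by 0.35 and did not pass (limma adjusted p = 0.306). Against LIF, the brighter probe differed by 0.33 with control shRNAs and did not pass (limma adjusted p = 0.267). The call for Fgf17 was lost when any 1 of the 4 arrays compared was left out (limma adjusted p 0.0742 to 0.121).

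Fgf10, a secreted ligand of Fgfr2, was the only ligand of the list that fell. Probe ILMN_2736497 had 5.39 and 4.97 with FGF4, both below detection, against 6.78 and 6.28 without growth factor, where it was detected on both arrays. The signal without growth factor was at least 2.09-fold higher (limma adjusted p = 0.008), and a second probe, ILMN_2982771, gave at least 2.28-fold (limma adjusted p = 0.00125). The call of the first probe was lost without the shRnd2 array with FGF4 (limma adjusted p = 0.0825) or without the shRnd1 array labelled as without growth factor (0.0839), and without either of them 3 instead of 5 genes of the list were called. With LIF, the first probe was at least 1.32-fold higher than with FGF4 and control shRNAs, and did not pass (limma adjusted p = 0.116). The second gave at least 1.17-fold there and passed (limma adjusted p = 0.0272). Against no growth factor, Fgf12, Fgf21, Fgf22 and Fgf23 differed by 0.43, 0.12, -0.26 and 0.22 and did not pass. The other 12 genes of the list had no named probe past the filter, among them Fgf2, a ligand used to culture epiblast stem cells.

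**Figure D3:**
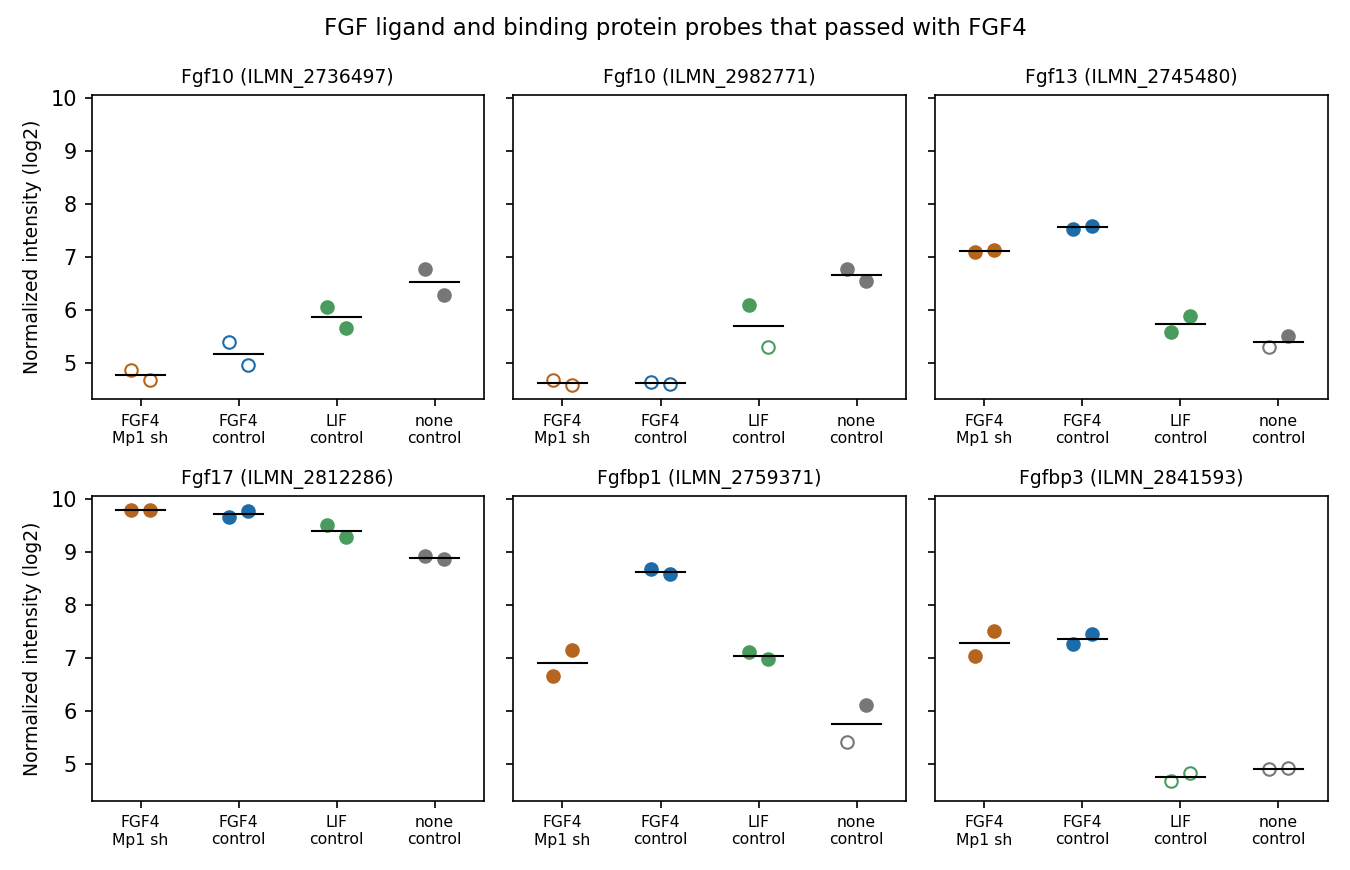
Normalized log2 intensity (y axis) on each of the 8 arrays for the probes of Fgf10, Fgf13, Fgf17, Fgfbp1 and Fgfbp3 that passed between FGF4 and no growth factor in control shRNA cells, by group (x axis; bars are means of 2 arrays). Open points are not above background, as for Fgf10 on all 4 arrays with FGF4 and for Fgfbp3 on all 4 arrays without it.

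The promoters of the 2 binding proteins and of Fgf10 are shown because these genes had the largest rises and the single fall of the list. The letters TATAAA were searched on both strands, and capitals mark a match; they occur in 13.6% of promoters. The ETS letters CCGGAAGT were matched in none of the 3.
Fgfbp1, chr5:43981750-43982049, minus strand: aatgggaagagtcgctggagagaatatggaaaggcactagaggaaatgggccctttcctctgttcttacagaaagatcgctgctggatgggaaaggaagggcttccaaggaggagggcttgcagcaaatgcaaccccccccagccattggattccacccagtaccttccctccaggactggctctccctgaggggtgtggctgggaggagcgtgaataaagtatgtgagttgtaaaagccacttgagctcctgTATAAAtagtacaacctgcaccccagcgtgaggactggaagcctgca
Fgfbp3, chr19:36919550-36919849, minus strand: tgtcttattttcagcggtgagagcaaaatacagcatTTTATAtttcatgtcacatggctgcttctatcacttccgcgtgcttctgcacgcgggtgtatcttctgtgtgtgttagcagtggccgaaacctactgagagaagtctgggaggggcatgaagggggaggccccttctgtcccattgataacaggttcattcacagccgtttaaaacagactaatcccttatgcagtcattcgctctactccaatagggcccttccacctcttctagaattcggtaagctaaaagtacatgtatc
Fgf10, chr13:118714449-118714748, plus strand: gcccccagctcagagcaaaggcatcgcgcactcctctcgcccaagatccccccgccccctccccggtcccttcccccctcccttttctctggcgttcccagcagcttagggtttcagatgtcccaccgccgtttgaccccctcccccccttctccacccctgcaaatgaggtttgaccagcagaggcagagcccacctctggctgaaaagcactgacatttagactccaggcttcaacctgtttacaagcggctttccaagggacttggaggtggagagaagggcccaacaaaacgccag
Fgfbp1 held TATAAA at position 3 relative to the start, Fgfbp3 held its reverse complement TTTATA at position -214, and Fgf10 held neither. A TATA box lies shortly before the start, where neither match is. Among the receptors and ligands with a promoter in the table, the match was in Fgf5 alone.

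Of the coreceptors and heparan sulfate enzymes, 13 of 20 were measured, and 2 rose, 1 fell and 10 did not pass. Sulf1, which removes 6-O-sulfates from heparan sulfate outside the cell, had 9.35 and 9.83 with FGF4 against 7.83 and 7.60 without, a rise of 1.87 (interval 1.27 to 2.47, limma adjusted p = 0.00195), and a second probe rose by 1.66 (limma adjusted p = 0.00104). Hs6st1, which adds 6-O-sulfates, had 8.63 and 8.64 against 10.08 and 9.98 and fell by 1.40 (interval -1.88 to -0.92, limma adjusted p = 0.00274). Sulf1 and Hs6st1, which act on the same sulfate position in opposite ways, moved in opposite directions. Sulf2, the other Sulf enzyme of the list, went the other way from Sulf1, by -0.43 (interval -1.15 to 0.29). It did not pass (limma adjusted p = 0.457). The sulfation of heparan sulfate itself was not measured.

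Il17rd, also called Sef, a membrane protein that restrains FGF receptor signalling, had 7.94 and 7.75 with FGF4 against 6.03 and 6.18 without. It rose by 1.74 (interval 1.31 to 2.17, limma adjusted p = 0.000568), while its second probe differed by 0.50 (limma adjusted p = 0.0996). Sdc1, a heparan sulfate proteoglycan, did not pass with its brightest probe (0.69, limma adjusted p = 0.242) and passed with a dimmer one (at least 1.54-fold higher, limma adjusted p = 0.0326). Leaving out either Mp1 shRNA array, which enters only through the shared estimate of spread, raised the calls of this list from 3 to 5.

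The adaptors next to the receptor did not pass against no growth factor: of 8 measured of 16, 0 were called by limma. Calls of adaptors against LIF are given below. Of the 8, 3 had an unadjusted limma p under 0.05, as did 4894 of all 18110 tested probes. These 3 were Stat3 (-1.18), Crk (-0.53) and Nras (0.44), with limma adjusted p of 0.0545, 0.0955 and 0.137. A dimmer probe of Crk passed, at -0.74 (limma adjusted p = 0.0294). Grb2, which links the receptor complex to RAS activation, differed by -0.03 (interval -0.53 to 0.48), and Ptpn11, the phosphatase SHP2, by 0.29 (interval -0.11 to 0.69). Without either Mp1 shRNA array, or without the shRnd2 array with FGF4, 1 of the 8 was called.

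Inhibitors of the pathway rose in 3 of 4 cases: of 13 genes, 4 were measured, 3 rose and 1 did not pass, with a median difference of 1.31. Dusp4, a phosphatase that inactivates ERK, had 9.59 and 9.71 with FGF4 against 5.46 and 5.34 without, where it was not above background, and was at least 18.0-fold higher (limma adjusted p = 2.25e-05). Its other 3 probes passed as well, at least 1.47-fold, 4.99-fold and 5.34-fold higher. Spred1, which blocks activation of RAF by RAS, had 7.31 and 7.53 against 5.75 and 5.79 and rose by 1.65 (interval 1.17 to 2.12, limma adjusted p = 0.00118). Dusp5, another ERK phosphatase, rose by 0.97 (limma adjusted p = 0.0251), a call lost without any 1 of the 4 arrays compared (limma adjusted p 0.122 to 0.149). Spry4, of the Sprouty family of inhibitors, differed by 0.80 (interval 0.20 to 1.41) and did not pass (limma adjusted p = 0.0836).

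All 4 measured of the 10 transcription factors were called, 2 in each direction. Etv4, an ETS factor induced by FGF in many tissues, had 9.40 and 9.58 with FGF4 against 7.25 and 7.21 without and rose by 2.26 (interval 1.86 to 2.67, limma adjusted p = 0.000129). Myc rose by 0.65 from a level not above background, which gives at least 1.04-fold (limma adjusted p = 0.0372). The immediate early genes Egr1 and Fos, which ERK induces within minutes in many cells, were lower with FGF4 on day 3 than without growth factor. Against LIF, Egr1 was also called lower, with 7.93 and 7.86 on the LIF arrays, but not with array median scaling (limma adjusted p = 0.142). Fos had 5.48 and 6.19 on the LIF arrays and was not called. Egr1 with FGF4 had 7.05 and 6.85 against 8.73 and 8.82 without growth factor and fell by 1.82 (limma adjusted p = 0.000362). Fos had 6.11 and 5.51 against 7.04 and 6.95 and fell by 1.19 (limma adjusted p = 0.0231). The calls of Myc and Fos were lost when single arrays were left out (limma adjusted p up to 0.251 and 0.181). That of Myc was also lost with no background correction (0.0827), array median scaling (0.0799) and an offset of 50 (0.119), and that of Fos with no filter (0.0806). Without the shRnd2 array with FGF4 or either array labelled as without growth factor, 2 of the 4 were called.

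**Figure D4:**
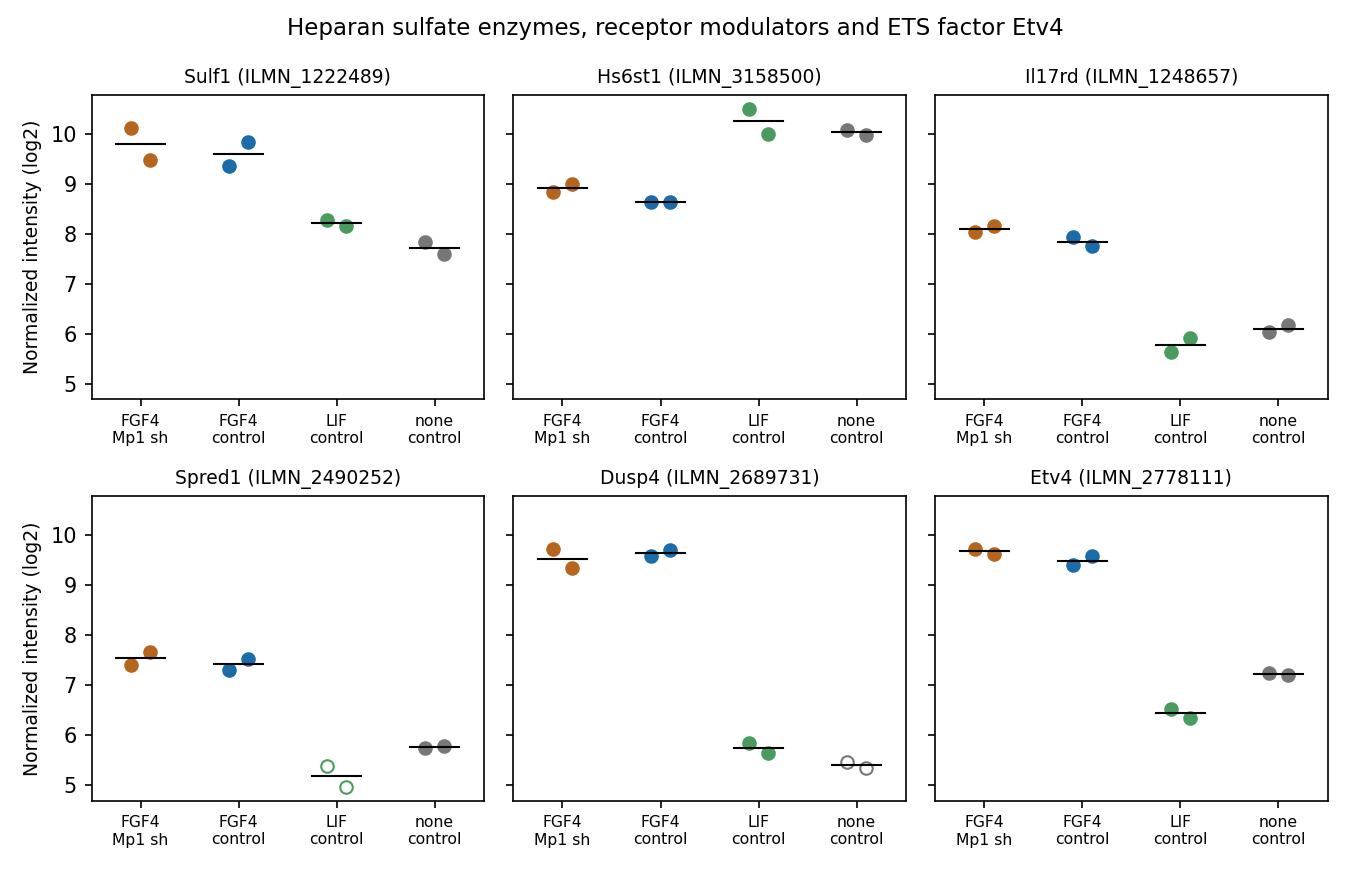
Normalized log2 intensity (y axis) on each array for 2 heparan sulfate enzymes (Sulf1, Hs6st1), 3 inhibitors of the pathway (Il17rd, Spred1, Dusp4) and the transcription factor Etv4, by group (x axis; bars are means of 2 arrays, open points are not above background). Hs6st1 is lower on all 4 arrays with FGF4 and the other 5 genes are higher there than on the 4 arrays without it, with either kind of shRNA.

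With Mp1 shRNAs in place of control shRNAs, under FGF4, 0 of the 38 pathway genes were called by limma, against 0.0336% of named genes by their brightest probe. Of the 38, 3 had an unadjusted limma p under 0.05, as did 2369 of all 18110 tested probes. The largest difference, named after its value was seen, was that of Fgfbp1. It had 6.66 and 7.16 with shMp1Lib and shMP1G and 8.68 and 8.58 with the control shRNAs. The difference was -1.72 (interval -2.33 to -1.11, limma adjusted p = 0.0832). Over the alternatives its limma adjusted p ran from 0.00527, without shMP1G, to 0.82, without the shRnd1 array with FGF4. Without shMP1G, 2 of the 38 genes were called. The other 2 with an unadjusted p under 0.05 were Egr1 and Fgf13. Egr1 had 5.97 and 5.77 with Mp1 shRNAs against 7.05 and 6.85 with control shRNAs, a difference of -1.08 (interval -1.49 to -0.67, limma adjusted p = 0.105). Fgf13 differed by -0.45 (interval -0.87 to -0.02, limma adjusted p = 0.365). Dusp4 (-0.12, interval -0.57 to 0.34), Etv4 (0.19, interval -0.22 to 0.59) and Spred1 (0.12, interval -0.36 to 0.60) had intervals that include 0. Their differences were smaller than those between FGF4 and no growth factor. These intervals rest on a spread shared by all groups, and the Mp1 shRNA arrays had the largest residual SD (0.432, against 0.185 to 0.294). They may therefore be too narrow, and they do not show that these genes were unaffected.

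Between the arrays labelled LIF and those labelled as without growth factor, 0 of the 38 genes were called by limma, against 0.0112% of named genes. An unadjusted limma p under 0.05 was found for 10 of the 38 genes and for 1319 of all 18110 tested probes. The other 3 comparisons share arrays with the one between FGF4 and no growth factor and are given side by side. FGF4 with control shRNAs against LIF gave 13 genes that rose and 3 that fell (42.1%, against 16.3% of named genes). FGF4 with Mp1 shRNAs gave 12 and 4 against no growth factor (42.1%, against 14.2%) and 14 and 3 against LIF (44.7%, against 18.4%). Of the 8 adaptors, 1 rose and 1 fell with control shRNAs against LIF. Nras rose, with 11.35 and 11.25 against 10.53 and 10.44, and Crk fell, with 6.18 and 6.08 against 6.73 and 6.84. Nras alone rose with Mp1 shRNAs against LIF, with 11.37 and 11.26. The call of Crk was lost with array median scaling (limma adjusted p = 0.425). Each of these adaptor calls was lost when some single arrays were left out. Spry4, which had not passed before, rose against LIF by 1.22 with control shRNAs (limma adjusted p = 0.0174) and by 1.32 with Mp1 shRNAs (limma adjusted p = 0.0131). The first call was lost with no filter (0.0603), without the shRnd2 array with FGF4 (0.141) and without the shRnd2 array labelled LIF (0.0939). The second was lost with only the 4 arrays compared (0.0664) and without that LIF array (0.0578).

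Heparan sulfate enzymes made up part of these further calls. Hs2st1, which adds 2-O-sulfates, rose against LIF by 0.68 with control shRNAs (limma adjusted p = 0.0463) and by 0.94 with Mp1 shRNAs (limma adjusted p = 0.0128). Its second probe did not pass in the first comparison (0.38, limma adjusted p = 0.197) and passed in the other (0.67, limma adjusted p = 0.0301). The first call was lost with no background correction (0.062), an offset of 50 (0.0509) and without any 1 of the 6 control shRNA arrays (0.0899 to 0.274). The call with Mp1 shRNAs was lost with the 4 arrays compared (0.0865), with array weights (0.0567) and without the shRnd1 array labelled LIF (0.0711). Ndst2, an enzyme that starts the sulfation of the chain, rose with Mp1 shRNAs by 0.90 against no growth factor (limma adjusted p = 0.0186) and by 0.98 against LIF (limma adjusted p = 0.0123). The call against no growth factor was lost with the 4 arrays compared (0.0673), without shMp1Lib (0.0526) and without either array labelled as without growth factor (0.144 and 0.0985). The call against LIF was lost with the 4 arrays compared (0.0843), with array weights (0.0525) and without the shRnd1 array labelled LIF (0.0905). Gpc3, a proteoglycan that carries such chains, rose with control shRNAs against LIF by 0.81 (limma adjusted p = 0.0296), and a dimmer probe by 1.00 (limma adjusted p = 0.0194). The first call was lost without any 1 of the 6 control shRNA arrays (0.0671 to 0.156). Leaving out single arrays changed the number of called genes to between 8 and 19 for FGF4 with control shRNAs against LIF, 9 and 17 for Mp1 shRNAs against no growth factor, and 10 and 19 for Mp1 shRNAs against LIF.

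Markers of other cell types did not move as one group. The summed linear level of the 2 measured epiblast markers, Pou3f1 and Dnmt3b, was 2080 with FGF4 and control shRNAs and 1950 with Mp1 shRNAs, against 182 with LIF and 124 without growth factor. That of the 7 endoderm markers was 386 and 412 against 278 and 271, with Foxa2 detected on no array. Most of this difference lay in Dab2, with mean log2 levels of 7.17 and 7.43 with FGF4 against 5.31 and 5.18. Sox17 was also higher, at 5.62 with FGF4 and control shRNAs and 5.3 with Mp1 shRNAs, against 5.07 with LIF and 4.89 without growth factor. Neither of the 2 Sox17 probes was detected on more than 3 of 8 arrays. Sox7 (5.71 and 5.88), Pdgfra (5.03 and 5.17), Gata6 and Gata4 were not higher with FGF4 and control shRNAs than without growth factor. The 4 neural markers summed to 171 and 129 with FGF4 against 150 and 186, with Sox1 and Pax6 detected on no array. Of these, Nes had mean log2 levels of 6.33 and 5.0 with FGF4 against 5.81 with LIF and 6.49 without growth factor. The 4 trophoblast markers summed to 118 and 108 against 105 and 107, with Eomes, Elf5 and Hand1 detected on no array. The 6 feeder markers summed to 317 and 295 against 220 and 199, with Thy1 alone detected. A probe that was not detected adds its background level to a sum, so these sums are not marker levels alone. The role of these marker levels in the differences above was not tested.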

How the data were processed

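Values came from the deposited table that is not normalized, which holds a linear intensity and a detection p-value per probe and array, per the file headers. Not given in the sources used here is the software behind them. Of the 362248 intensity values, 81.2% lacked their decimal point. It was restored from the digits and, in 230420 cells, from the detection p-value, a rule tested on simulated data. The deposited value table of intensities was used for a check of probe IDs alone: its values under one ID correlated at 0.126 to 0.177 with the first table, in which ribosomal protein probes had a median percentile of 99.5 against 57.2. Symbols come from the platform annotation, which gave 1 symbol to 32245 probes and several to 17; the other 13019 are unnamed here. Promoters are RefSeq's (GRCm38.p6), and coordinates were used for nothing else. Probe sequences were not used here.

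Intensities went through neqc in limma 3.58.1 (R 4.3.3, statmod 1.5.0): normexp background correction, offset 16, quantile normalization and log2. Probes detected (p-value under 0.05) on 2 or more of the 8 arrays were fitted with 4 group means over all 8 arrays (4 residual and 4.37 prior degrees of freedom). Tests were two-sided at an adjusted p of 0.05, and the fit was tested on simulated data. A probe undetected on all arrays of a group gives a fold of at least N: the brighter mean against, per array, the higher of the lowest detected signal and the probe's own.

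A title gives each sample's shRNA. The treatment note gives Rnd1 for both LIF samples, whereas their titles give shRnd1 and shRnd2, which were followed. Arrays of the same shRnd number did not deviate together (correlations -0.0864, -0.0691 and 0.0547), so the numbers were not treated as pairs. The number of arrays limits the precision. With 2 arrays a group, values that do not overlap are a description and not a test. The share of all probes without overlap was not computed. The genes, lists and naming rule were chosen with earlier results of these data known. The rule named every probe of the 8 genes, up to 5 called genes per list and comparison, by size of change, and the 3 genes most like each called receptor or ligand, of which there were 0. Genes given as not passing, and other probes of a gene, are named beside them for completeness. Alternatives were background correction, scaling, offset, filters, brightest probe, arrays in the fit, array weights, the replicate block and leaving out each array.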

Additional observations from a re-analysis of the deposited data

How the results depend on the processing

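The alternatives cover the 2 receptor probes past the filter (Fgfr2, Fgfrl1), except that no filter covers all 10 receptor and ligand probes and detection on all 8 arrays covers none of them. None was called except Fgfrl1 between Mp1 shRNAs and LIF without shMP1G, which makes a count of 0 to 1 when single arrays are left out. The other counts below are of pathway genes called. Requiring detection on all 8 arrays, which removes genes, left 1 ligand, 1 inhibitor and 2 transcription factors between FGF4 and no growth factor, and 9, 8 and 9 genes of all lists for control shRNAs against LIF, Mp1 shRNAs against no growth factor and Mp1 shRNAs against LIF. Fitting the 4 arrays compared gave 6 coreceptor genes, 2 adaptors and, for Mp1 shRNAs against LIF, 8 genes; array weights gave 6, 3 and 10. No background correction and no filter each gave 1 adaptor. The replicate block over the 6 control shRNA arrays gave 6 coreceptor genes and 1 adaptor and changed no other count of calls by over 1.5 times. Leaving out single arrays gave 3 to 5 ligands, 3 to 5 coreceptor genes, 0 to 1 adaptors and 2 to 4 transcription factors, and over all lists 0 to 2 genes for Mp1 against control shRNAs, 8 to 19 for FGF4 against LIF, 9 to 17 for Mp1 shRNAs against no growth factor and 10 to 19 against LIF. Of 63 calls of single genes, 34 held in every alternative that tested them, 29 were lost in at least 1, and 0 reversed. Over all probes, calls between FGF4 and no growth factor went from 2688 to 4806 with the 4 arrays compared and 5038 with array weights, those between Mp1 and control shRNAs from 15 to 0 and 2, and those between LIF and no growth factor from 1 to 1 and 29. Leaving out single arrays gave 1180 to 3942 calls for FGF4 against no growth factor, 1135 to 4098 (of 2734) against LIF, 870 to 5451 (of 2427) for Mp1 shRNAs against no growth factor and 1085 to 7362 (of 3338) against LIF. The lowest came without an array of one of the groups compared, and the highest without a Mp1 shRNA array, which for the last 2 was shMP1G. Scaling arrays to one median moved the median difference of all probes to 0.219 between FGF4 and LIF, 0.369 between Mp1 shRNAs and LIF and -0.182 between LIF and no growth factor. It became 0.174 between Mp1 shRNAs and no growth factor, 0.145 between Mp1 and control shRNAs and 0.0363 between FGF4 and no growth factor. Small differences in these comparisons therefore depend on the scaling. The cause of these changes was not tested. The dim signal of the receptor probes, near background on most arrays, limits what could be detected.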
